A study of Mus musculus with 18 samples.

Results

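The sites described here are CHD4 sites that were kept without GFI1. They were chosen as the CHD4 peaks of WT granulocyte-monocyte progenitors (GMPs) that overlapped a CHD4 peak of Gfi1-/- GMPs by at least 1 bp. Of the 35790 CHD4 peaks of WT GMPs, 6632 (18.5%) were kept and 29158 were not, and the latter are called other sites below. In the opposite direction, 7245 of the 7316 peaks of Gfi1-/- GMPs (99.0%) overlapped a WT peak and 71 overlapped none. The sites were thus selected on the measured CHD4 peaks of both lists. Enrichment, width and rank come from the same peaks, so that these values are given as a description without a test.

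CHD4 is an ATPase that moves nucleosomes and is the motor subunit of the NuRD complex, which joins chromatin remodeling with histone deacetylation. GFI1 is a zinc-finger repressor that is needed for the formation of neutrophils from GMPs, and it can bring corepressors such as LSD1 and members of NuRD to chromatin. H3K4me2 is a histone mark of promoters and enhancers, and a change in its position along a lineage shows which regulatory regions carry it at each stage.

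All cells came from bone marrow of adult C57BL/6 mice of 6 to 12 weeks. CHD4 was mapped by ChIP-seq, in which an antibody pulls down a protein with the DNA it sits on, in 1 library of WT GMPs and 1 library of Gfi1-/- GMPs, so the genotype difference had no replicate check. H3K4me2 was mapped in WT GMPs, WT pre-neutrophils (preNeu) and WT mature neutrophils (matNeu) with 1 library each, and open chromatin by ATAC-seq in WT preNeu and matNeu. RNA-seq was done on 3 libraries of each of these 3 stages, all wild type. The expression values therefore describe WT differentiation, and no expression value of Gfi1-/- cells was used here. GMPs were sorted as lineage-depleted cells with c-KIT, CD16/CD32 and CD34 and without SCA1. The preNeu and matNeu cells were sorted by GR-1, MAC-1, c-KIT, CXCR4 and CXCR2. The labels do not say whether libraries of a stage came from separate animals, so p-values measure the spread between these libraries, which may be technical.

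The stage labels were checked against marker genes of each stage. The summed level of 6 GMP markers lay between 45267 and 47153 TPM in GMPs and between 9.32 and 32.7 TPM in matNeu, that of 7 preNeu markers between 149145 and 175481 TPM in preNeu, and that of 7 matNeu markers between 33751 and 36717 TPM in matNeu, where TPM is a transcript level corrected for length and depth. Each list was highest in its own stage, although Cd34, Kit and Cxcr2 in these lists encode proteins that were used for sorting. GMP libraries also held markers of other myeloid cells, with a summed level of 1252 to 1457 TPM for 5 basophil, mast cell and eosinophil genes and of 1163 to 1423 TPM for 6 monocyte and dendritic cell genes, against at most 12.9 and 17.7 TPM in matNeu. In matNeu 6 B cell markers summed to 62.9 to 137 TPM with 0 of them under 1 TPM, while 5 were under 1 TPM in GMPs. GMP libraries held 461 to 613 TPM of 5 T and NK cell genes, of which 3 were under 1 TPM. The part of such cells in the differences between stages was not tested. In bulk samples like these, fewer cells of a type and less RNA per cell cannot be told apart.

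The strongest sites of the Gfi1-/- list share DNA with each other, which is why the 200 bp around the summits of its 6 best-ranked peaks are shown here. The sequences are the plus strand of GRCm38 as given by RefSeq, and capitals mark stretches of at least 31 bases that also occur, on either strand, in the window of another CHD4 site of WT GMPs.
Rank 1, Rdm1, chr11:101641866-101642065: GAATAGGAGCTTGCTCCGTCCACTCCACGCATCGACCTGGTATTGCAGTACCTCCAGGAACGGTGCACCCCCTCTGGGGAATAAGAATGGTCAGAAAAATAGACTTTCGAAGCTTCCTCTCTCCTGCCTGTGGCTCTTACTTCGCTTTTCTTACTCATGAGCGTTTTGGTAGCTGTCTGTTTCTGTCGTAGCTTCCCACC
Rank 2, Rdm1, chr11:101645613-101645812: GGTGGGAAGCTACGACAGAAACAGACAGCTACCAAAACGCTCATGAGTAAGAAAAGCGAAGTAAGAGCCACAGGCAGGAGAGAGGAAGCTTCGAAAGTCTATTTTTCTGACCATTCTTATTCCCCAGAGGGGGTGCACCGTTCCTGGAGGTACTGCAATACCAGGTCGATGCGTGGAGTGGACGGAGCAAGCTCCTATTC
Rank 5, Mreg, chr1:72244280-72244479: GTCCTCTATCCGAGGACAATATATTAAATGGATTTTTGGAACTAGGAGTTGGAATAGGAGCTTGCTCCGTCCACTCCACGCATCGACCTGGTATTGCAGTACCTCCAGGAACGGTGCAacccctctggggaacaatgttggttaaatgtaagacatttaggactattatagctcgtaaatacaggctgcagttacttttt
Rank 3, Eapp, chr12:54738295-54738494: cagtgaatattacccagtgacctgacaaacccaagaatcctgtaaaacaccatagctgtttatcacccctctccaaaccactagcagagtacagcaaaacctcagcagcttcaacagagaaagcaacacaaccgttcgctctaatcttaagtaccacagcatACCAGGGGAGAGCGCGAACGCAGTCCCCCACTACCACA
Rank 4, Eapp, chr12:54734401-54734600: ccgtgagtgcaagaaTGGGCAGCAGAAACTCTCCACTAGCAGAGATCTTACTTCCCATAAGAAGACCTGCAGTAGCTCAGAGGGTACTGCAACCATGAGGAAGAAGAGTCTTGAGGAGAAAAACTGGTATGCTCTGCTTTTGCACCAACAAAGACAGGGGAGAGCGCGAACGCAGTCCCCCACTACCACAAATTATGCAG
Rank 6, Eapp, chr12:54710696-54710895: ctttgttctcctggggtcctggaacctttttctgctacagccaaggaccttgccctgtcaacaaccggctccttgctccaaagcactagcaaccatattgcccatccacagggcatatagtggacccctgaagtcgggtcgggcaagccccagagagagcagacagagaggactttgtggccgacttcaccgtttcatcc

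The windows of ranks 1 and 2, which both lie nearest to Rdm1, are exact reverse complements of each other over all 200 bp, and each shares a stretch with 9 other sites. The window nearest to Mreg, on another chromosome, holds a run of 67 bp in common with both of them and 118 bp of shared sequence in all, with 10 partner sites. The windows of ranks 3 and 4 near Eapp hold a common run of 36 bp, with 38 bp and 185 bp of shared sequence, while the third window near Eapp shares no such stretch. Reads from such copies can be placed on several of them, and how the authors' alignment treated them is not given in the sources used here, so the enrichment of each copy is uncertain. None of the 12 motifs described below occurs in these 6 windows.

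Shared stretches were not limited to these sites. Of 6595 kept sites on assembled chromosomes, 670 (10.2%, 95% Wilson interval 9.45 to 10.9) held a shared stretch, against 1735 of 29133 other sites (5.96%, interval 5.69 to 6.23). Among the 10 kept sites with the best rank in Gfi1-/- GMPs there were 7, among those with ranks 11 to 100 there were 14 of 87 (16.1%), and among those with ranks 1001 to 7316 there were 547 of 5630 (9.72%). In the decile of WT sites with the highest fold enrichment the shares of kept and other sites were 8.09% and 7.51%, and in the lower 5 deciles they were 55.4% and 6.14%. These intervals cover counting error only, here and for every share below, and copies of a sequence are not independent sites.

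Kept sites were the strong end of the WT list. Their median fold enrichment in WT GMPs was 21.2 (quartiles 14.9 and 30.1), against 6.83 for other sites, and their median width was 678 bp against 299 bp. Fold enrichment is the peak caller's ratio of ChIP signal to background. All of the 500 sites with the highest WT enrichment were kept, as were 999 of the best 1000 and 4212 of the best 5000 (84.2%). The share of kept sites climbed from 8.63% in the 7th decile of WT enrichment to 20.7%, 49.9% and 92.9% in the 3 deciles above it. The best-ranked WT site without a Gfi1-/- peak had rank 983 and a fold of 36.3 and lay in an intron of Hsdl2.

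In Gfi1-/- GMPs the same sites were weak and narrow. The matched peaks had a median fold of 6.52 (quartiles 5.27 and 8.87) and a median width of 259 bp. The ratio of Gfi1-/- to WT fold had a median of 0.328 (quartiles 0.262 and 0.420) and ranged from 0.0977 to 2.42, and 93 kept sites (1.40%) had the higher fold in Gfi1-/- GMPs. The order of the sites was partly the same in both lists, with a Spearman correlation of the folds of 0.677 over the 6632 sites, which share their 2 libraries. The depth of both libraries is unknown, and the folds of 2 libraries with unknown depth and efficiency are not a measure of the amount of CHD4.

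**Figure D1:**
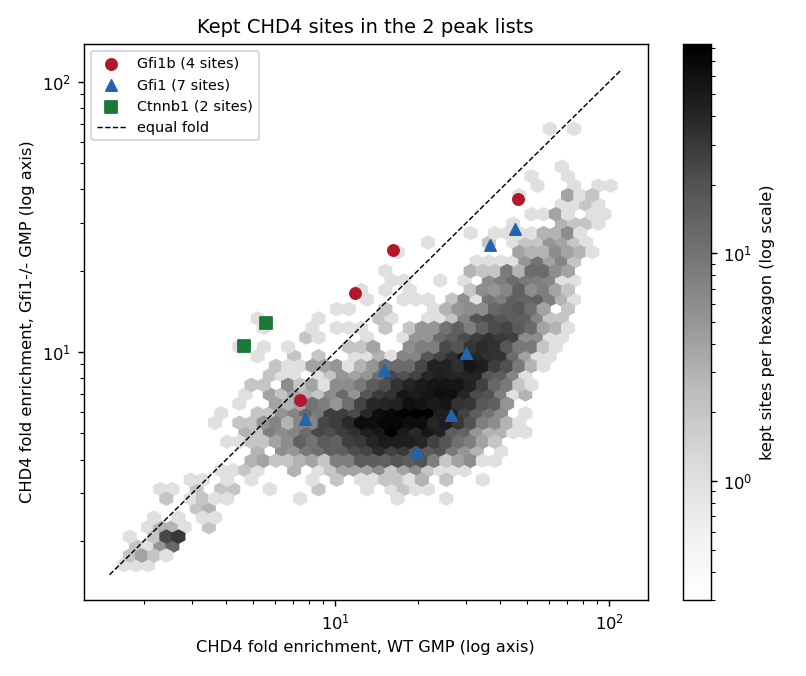
CHD4 fold enrichment of the 6632 kept sites in WT GMPs (horizontal, log axis) and in Gfi1-/- GMPs (vertical, log axis), with darker hexagons for more sites and the dashed line for equal fold. Most sites lie below the line, and coloured points mark the 7 kept sites nearest to Gfi1, the 4 nearest to Gfi1b and the 2 nearest to Ctnnb1.

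The 10 kept sites with the best rank in Gfi1-/- GMPs lay near 6 genes. Rdm1, which encodes a RAD52-related DNA repair protein, had ranks 1 and 2 with Gfi1-/- folds of 66.9 and 66.3 at sites 14024 and 17771 bp downstream of its transcription start site (TSS), against WT folds of 77.2 and 58.5. A further site at the Rdm1 promoter was rank 1 in WT GMPs with a fold of 101, and rank 9 in Gfi1-/- GMPs with 40.3. Eapp, which encodes an E2F-associated protein, had ranks 3, 4 and 6 with Gfi1-/- folds of 50.0, 46.1 and 43.0 at sites upstream of its TSS. Mreg, a melanosome transport factor, had rank 5 with 45.2 in an exon of a noncoding transcript. The remaining ranks were a site 9.78 kb upstream of Arhgap15, a RAC GTPase-activating protein, with 42.2, the promoter of Sla, an adapter that dampens receptor signalling in blood cells, with 41.3, and a site 46.1 kb upstream of Ang6, a ribonuclease gene, with 39.1. The Arhgap15 site was rank 2 in WT GMPs with a fold of 94.7. All 10 except the Ang6 site carried H3K4me2 at all 3 stages, and the Ang6 site carried it at none. Among the 100 best of each list, 58 sites were in common, and the 97 kept sites matched to the best 100 Gfi1-/- peaks had a median WT rank of 70.0.

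The gene that was deleted held kept sites itself. Gfi1 was the nearest gene of 21 CHD4 sites of WT GMPs, of which 7 were kept. Within the gene, an intron site had a fold of 45.3 in WT and 28.6 in Gfi1-/- GMPs (ranks 441 and 40), and 2 coding-exon sites had 36.6 and 24.8 (ranks 971 and 74) and 15.1 and 8.56. The other 4 kept sites lay 16.2 to 28.8 kb from the TSS, 3 of them downstream, with Gfi1-/- folds of 4.26 to 9.91. The 2 sites at the Gfi1 promoter, with WT folds of 3.63 and 3.58, were not kept. Peak lists cannot show which part of the gene the deletion removed, and the genotypes are those of the labels.

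At Gfi1b, the paralog of Gfi1 that acts in the erythroid and megakaryocytic lineages, 4 of 6 sites were kept and stood high in the Gfi1-/- list. An intron site had a fold of 46.5 in WT and 36.9 in Gfi1-/- GMPs (ranks 384 and 16). Of 3 coding-exon sites, 2 had the higher fold in Gfi1-/- GMPs, with 16.2 and 23.9 (ranks 5850 and 85) and 11.8 and 16.6 (ranks 9785 and 289), and the third had 7.45 and 6.66. The Gfi1b promoter site, with a WT fold of 7.38, was not kept. Of the kept sites at Gfi1b, 3 carried H3K4me2 at no stage and 1 in GMPs alone. Coding exons held 7 of the 93 sites with the higher fold in Gfi1-/- GMPs (7.53%), against 69 of all 6632 kept sites (1.04%).

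Most kept sites with a higher fold in Gfi1-/- GMPs were weak in WT GMPs. The 93 had a median WT fold of 6.06, and 33 of them lay in DNA that was soft-masked as repeat over at least 50% of the window. At Ctnnb1, which encodes beta-catenin, 2 sites were kept, with folds of 5.58 and 12.8 at the promoter and of 4.65 and 10.5 in the 3' UTR of a neighbouring gene, and neither carried H3K4me2 at any stage. Sites with shared stretches were also among them, such as an intron of Kcnip1 with 16.1 and 19.1, which shared DNA with 12 other sites. A site 266 kb from Cntnap2 with 15.1 and 20.5 shared DNA with as many.

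A group of 140 kept sites came from the decile of WT sites with the lowest enrichment, with a median WT fold of 2.56. Repeat covered at least 50% of the window at 82 of the 110 that had a sequence window, and the rest lay on scaffolds without sequence here. Among the 3439 other sites of that decile, of which 3427 had a window, 7.56% were so covered. The 140 kept sites were also wider than these other sites, with a median of 436 bp against 204 bp. Of the 140, 39 lay on chromosome 9 and 26 on the unplaced scaffold JH584304.1. On that scaffold 26 of 30 WT sites were kept.

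The edge of the choice was sharp in overlap but not in strength. The kept sites with the least overlap had 4 bp near Foxn3 (WT fold 15.5, Gfi1-/- fold 4.31), 40 bp near Slc5a6 (4.96 and 4.73) and 51 bp near Mrln (5.84 and 6.66). The other sites nearest to a Gfi1-/- peak lay 40 bp away in an intron of Smo (WT fold 1.61, the lowest rank of the list), 54 bp away in Nrcam (7.76) and 56 bp away in Gm8871 (6.93). In all, 147 other sites had a Gfi1-/- peak within 200 bp, and 555 kept sites overlapped 2 or more Gfi1-/- peaks.

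Kept sites were distributed over gene features much like other sites. Introns held 49.7% of kept and 50.0% of other sites, and intergenic DNA 37.3% and 35.8%. Promoters, defined as 2 kb before and 500 bp after a protein-coding TSS, held 7.71% and 9.01%, a difference of -1.30 percentage points whose 95% Newcombe interval ended at -0.560. Within 20 bins of WT fold the interval included 0 (-6.60 to 1.74), and in the second-highest decile of WT fold the shares were 7.68% and 6.63%, a difference of 1.04 points (-0.652 to 2.74). The median distance to the nearest protein-coding TSS was 23741 bp and 21839 bp, and 15.9% and 15.4% of sites lay over 100 kb away. The GC content of the windows had medians of 46.0% and 46.5%. Kept sites had closer neighbours, with 79.3% within 5 kb of the next WT site against 62.9%, and a median distance to the next kept site of 6818 bp against 40367 bp for other sites.

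Over all sites, H3K4me2 peaks were more frequent at kept sites at each stage. A peak overlapped 49.6% of kept and 35.1% of other sites in GMPs, a difference of 14.5 points (95% Newcombe interval 13.2 to 15.9). In preNeu the shares were 68.1% and 57.5%, a difference of 10.5 points (9.27 to 11.8), and in matNeu 62.4% and 50.2%, a difference of 12.2 points (10.9 to 13.5). The stages are not compared in level, since the lists held 37643, 49578 and 44094 peaks, and with lists cut to equal length the shares of kept sites were 49.6%, 60.9% and 58.4%. The excess lay away from promoters, where the shares in GMPs were 47.8% and 31.3%. At promoters they were 71.0% and 73.0%, a difference of -1.93 points (interval -6.33 to 2.22), and in preNeu 80.2% and 84.8%, a difference of -4.61 points (interval -8.51 to -1.09).

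Width and strength of the CHD4 peaks moved with this result. With the CHD4 summit required to lie inside the H3K4me2 peak, the shares in GMPs were 34.0% and 28.7% and the difference was 5.26 points, while those in preNeu (64.6% and 54.6%) and matNeu (58.6% and 46.9%) changed little. Thus many kept sites that touched an H3K4me2 peak in GMPs had their CHD4 summit outside it, and few did in the later stages. Within 20 bins of WT fold, the difference was 4.66 points in GMPs (interval -1.39 to 10.7), 6.98 in preNeu and 9.50 in matNeu, with the last 2 intervals above 0. With only H3K4me2 peaks of a -log10 q of at least 5, it turned to -1.93 points in GMPs and stayed at 9.14 in preNeu and 8.35 in matNeu. The GMP excess over all sites therefore depended on how an overlap was defined, while the differences over all sites in preNeu and matNeu stayed above 0 under these settings.

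The direction of the difference depended on the strength of the CHD4 site. The second-highest decile of WT fold held 1785 kept and 1794 other sites with median WT folds of 17.7 and 16.4 and median widths of 613 and 515 bp. H3K4me2 was found at 49.6% and 41.0% of them in GMPs, at 69.9% and 63.4% in preNeu and at 62.9% and 57.0% in matNeu. With the summit inside the peak the differences were 3.52, 6.86 and 6.43 points, and all 3 intervals lay above 0. In the 6 lowest deciles, which held 23 to 151 kept sites each, H3K4me2 was less frequent at kept than at other sites in preNeu and matNeu. The lowest decile had 6.43% and 56.0% in preNeu and 31.4% and 48.2% in matNeu. In the 6th decile, where median WT folds were 8.38 and 8.30, the shares were 47.7% and 57.4% in preNeu and 45.7% and 49.3% in matNeu. In GMPs kept sites had the lower share in deciles 1 to 4 and 7.

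**Figure D2:**
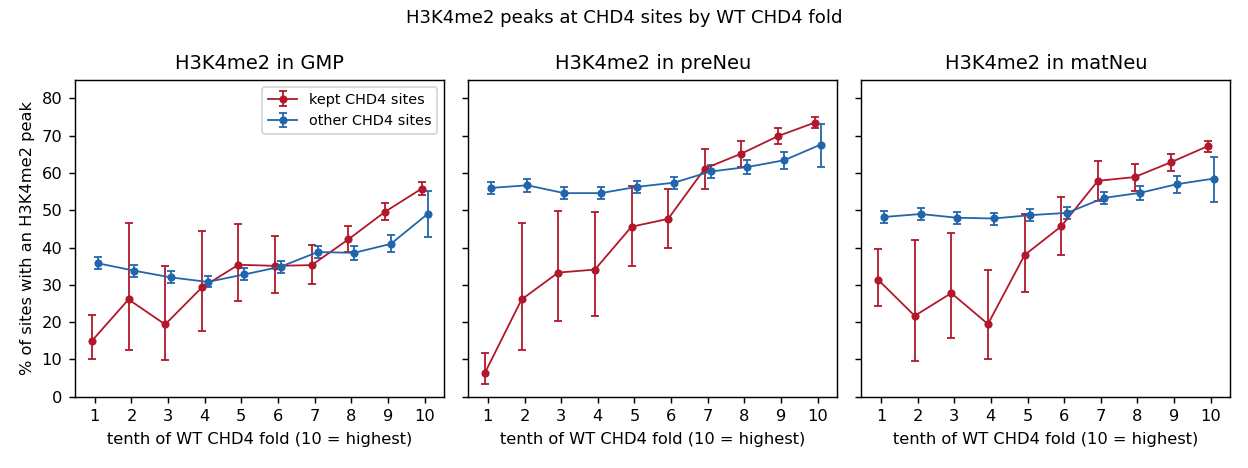
Share of CHD4 sites with an H3K4me2 peak at each stage (vertical, percent) by decile of WT CHD4 fold enrichment (horizontal, 10 is the highest), for kept and other sites, with 95% Wilson intervals as bars. Kept sites lie above other sites in the 3 highest deciles of every panel and below them in the 6 lowest deciles for preNeu and matNeu, where kept sites are few.

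Along differentiation, the largest class of kept sites carried H3K4me2 at all 3 stages, with 38.9% of kept and 27.1% of other sites. No stage had a peak at 22.8% and 35.7%. The class with a peak in preNeu and matNeu but not in GMPs made up 21.2% of each. The GMP list had fewer strong peaks. A -log10 q of at least 5 was reached by 7076 of 37643 peaks in GMPs, 28748 of 49578 in preNeu and 22197 of 44094 in matNeu. Whether a site without a GMP peak lacked the mark or was only not called was not tested. A peak in GMPs alone was seen at 6.79% of kept and 4.80% of other sites, and the remaining 4 patterns each held less than 5% of kept sites. ATAC-seq peaks, whose preNeu and matNeu lists are identical and were counted as 1 list, overlapped 14.5% of kept and 9.08% of other sites, a difference of 5.43 points (4.53 to 6.35). In the second-highest decile of WT fold this was 13.3% and 10.9%. Within 20 bins of WT fold the difference was 2.79 points with an interval that began at -1.43 and included 0.

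Sequence motifs of myeloid factors were frequent in the 200 bp around the summits of kept sites. Each motif was searched on both strands by its letters. C/EBP factors drive granulocyte genes, and their motif (TTGCNNAA) was in 20.5% of kept windows, 16.5% of other windows and 9.19% of windows 1000 bp downstream of kept sites. The motif of RUNX factors (TGTGGTT) was in 13.1%, 9.78% and 5.14%. The motif of SPI1, also called PU.1 and a master factor of myeloid cells (GAGGAAGT), was in 12.0% of kept and 11.7% of other windows against 1.38% of the downstream windows, 8.73 times the latter. A composite of ETS and IRF motifs (GGAANNGAA), which may overlap the IRF motif, was in 17.2%, 15.1% and 6.49%, and the IRF motif (GAAANNGAA) in 12.8%, 11.7% and 8.23%.

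The core motif of GFI1 (AAATCA) was not more frequent at kept sites than beside them, and the same held for other sites. It was in 13.1% of kept windows and 15.9% of the windows downstream of them. For other sites these shares were 11.8% and 15.3%. The base composition of the downstream windows is not given here. The kept-minus-other difference was 1.29 points (0.411 to 2.20). The AP-1 motif, TGANTCA, was in 10.3% of kept and 10.1% of other windows. For CTCF, an insulator factor whose motif was searched as CCANNAGGG, the shares were 2.96% and 3.33%. For GATA factors, searched as AGATAAG, they were 2.02% and 2.51%. For SP/KLF factors, which bind promoters and were searched as GGGCGGG, they were 1.32% and 2.61%. The ETS motif, CCGGAAGT, and the CRE, TGACGTCA, were each in under 1% of windows. Within bins of WT fold, the C/EBP difference was 3.98 points (interval 0.211 to 7.75) and RUNX (2.15 points) and GFI1 (3.10 points) kept their sign with intervals that included 0, whereas SPI1 was lower at kept sites by -5.72 points (interval -11.1 to -0.348). Differences of the other motifs were small within bins. Those of ETS-IRF (-1.21 points), AP-1 (-0.908), GATA (0.732), CTCF (0.556), ETS (0.119), SP/KLF (0.0471) and CRE (0.0187) had the opposite sign there. The GATA interval lay above 0 within bins (0.248 to 1.22) and below 0 over all sites (-0.860 to -0.0888). Intervals within bins rest on few other sites in the highest bins.

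**Figure D3:**
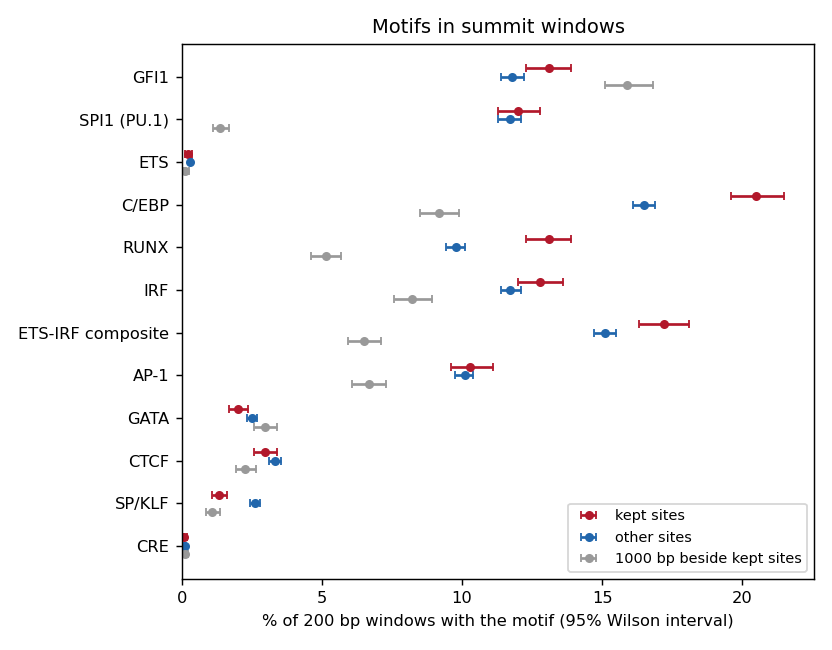
Share of 200 bp windows that hold each of the 12 motifs (horizontal, percent, bars are 95% Wilson intervals) at kept sites, at other sites and 1000 bp downstream of kept sites. C/EBP and RUNX motifs are more frequent at kept than at other sites, and SPI1 is at 12.0% and 11.7% of them and rare beside kept sites. The GFI1 core is most frequent beside kept sites. Other sites also had it less often than windows beside them, which are not drawn.

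The kept sites were nearest to 2604 protein-coding genes, out of 7286 with any CHD4 site. A single kept site was assigned to 1280 genes, 2 to 4 to 964 genes, and 5 or more to 360 genes, which together held 42.3% of the kept sites. The nearest gene is an assignment by distance, and genes with large intergenic surroundings collect more sites. Expression could be tested for 1883 of the 2604 genes, while 721 were not in the table or did not reach 1 TPM in 3 libraries. Changes are differences of log2(TPM + 1) by limma over 13061 genes, with p-values adjusted by the method of Benjamini and Hochberg at 0.05.

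Genes nearest to kept sites rose more often along differentiation than all genes tested did. From GMP to matNeu, 656 of 1883 rose (34.8%, against a background of 22.8%) and 866 fell (46.0%, background 54.1%), with a median change of -0.35 against -0.92. From GMP to preNeu, 449 rose (23.8%, background 14.7%) and 732 fell (38.9%, background 44.3%). From preNeu to matNeu, 616 rose (32.7%, background 22.9%) and 651 fell (34.6%, background 39.8%). These comparisons share libraries and are not independent of each other.

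The split between rising and falling genes depended on the scaling of TPM. Setting the median of log2(TPM + 1) over the tested genes equal in all libraries moved the median change of all genes from GMP to matNeu from -0.92 to 0.47, and then 1069 of the 1883 genes rose (56.8%, background 46.1%) and 464 fell (24.6%, background 31.1%). From GMP to preNeu it gave 781 that rose (background 29.3%) and 421 that fell (background 24.2%), and from preNeu to matNeu 985 (background 42.3%) and 392 (background 24.9%). Leaving out the 50 most abundant genes and rescaling gave 599 that rose (background 21.1%) and 538 that fell (background 31.7%) from GMP to preNeu, so that rising genes outnumbered falling ones there. It gave 688 (background 24.5%) and 820 (background 51.5%) from GMP to matNeu, and 547 (background 19.8%) and 729 (background 45.0%) from preNeu to matNeu. With TPM as deposited and with equal medians, the share of rising genes was above the background.

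The more kept sites a gene had, the larger was the share that rose. From GMP to matNeu, 17.7% of 8057 genes without a CHD4 site rose, 28.6% of 3121 genes with other sites only, 31.9% of 861 genes with 1 kept site, 34.6% of 725 genes with 2 to 4, and 43.8% of 297 genes with 5 or more (95% Wilson interval 38.2 to 49.5). The number of all CHD4 sites moved with this order. Among genes with 5 to 9 CHD4 sites, 39.1% of 394 without a kept site rose and 36.4% of 591 with a kept site, and among genes with 10 or more, 48.6% of 74 without and 39.6% of 738 with a kept site. These differences were not tested, and with equal medians the order for 5 to 9 sites was the opposite, with 56.6% without and 59.4% with a kept site. Of 364 tested genes with a kept site at the promoter, 42.0% rose and 36.3% fell, against 37.1% and 44.8% of 1477 with only other sites there.

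**Figure D4:**
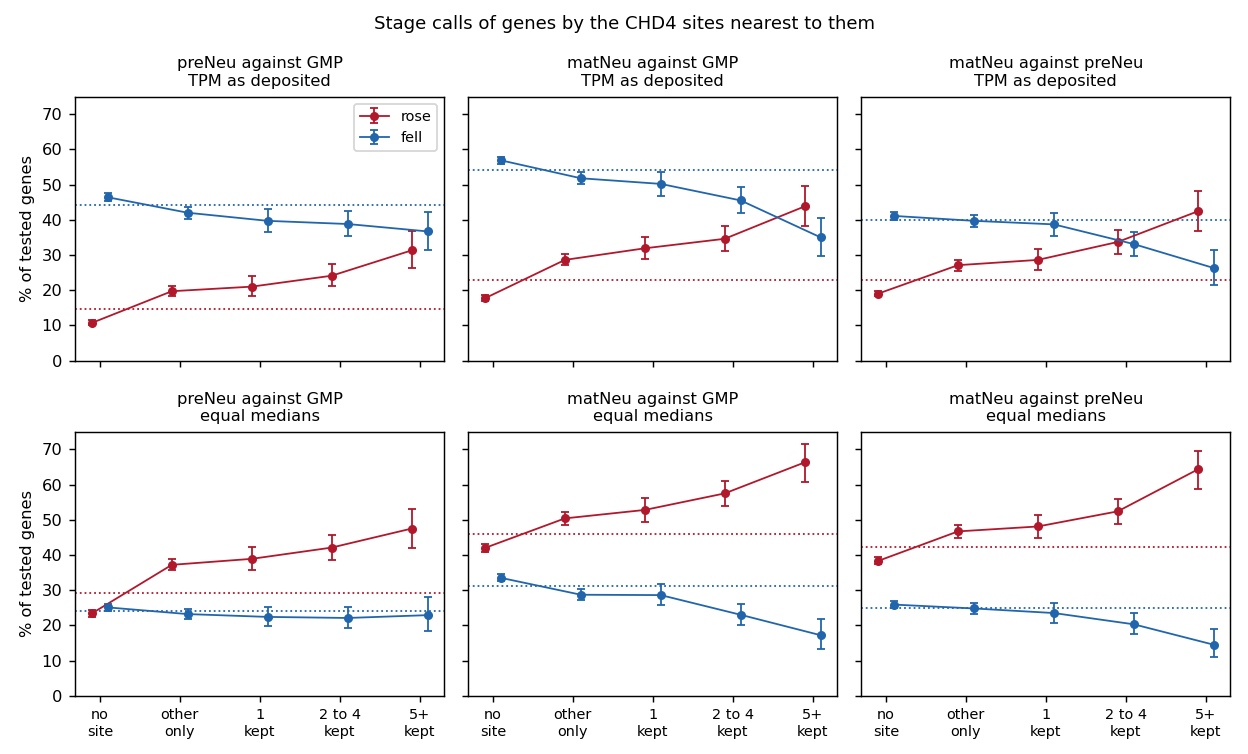
Share of tested genes that rose or fell in each comparison (vertical, percent, bars are 95% Wilson intervals) for genes without a CHD4 site, with other sites only, and with 1, 2 to 4, or 5 or more kept sites, with all genes tested as dotted lines. The upper row uses TPM as deposited and the lower row libraries set to equal medians, and in both the share that rose climbs from left to right.

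The share of rising genes differed with the H3K4me2 pattern of the kept site. From GMP to matNeu, 340 of 724 genes with a kept site marked in preNeu and matNeu but not in GMPs rose (47.0%) and 248 fell (34.3%). Where the kept site was marked in GMPs alone, 48 of 242 genes rose (19.8%) and 143 fell (59.1%), with a median change of -1.23. Genes with a kept site marked at all 3 stages rose in 39.1% and fell in 42.3% of 1142, and those with an unmarked kept site in 26.9% and 50.5% of 646. Over all genes tested, 22.8% rose and 54.1% fell, which the GMP-alone class was near. With equal medians the shares that rose were 68.5%, 43.4%, 61.2% and 51.4% in the same order, beside 46.1% of all genes tested, and in the GMP-alone class 105 genes then rose and 75 fell. A gene with several kept sites can be in more than one of these classes. The classes rest on called peaks, and the GMP list had fewer strong peaks than the later lists.

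The genes nearest to the best-ranked kept sites took different courses. Sla, Arhgap15 and Eapp rose from GMP to matNeu. Sla was measured at 175, 175 and 142 TPM in GMPs, 354, 387 and 419 TPM in preNeu and 409, 421 and 634 TPM in matNeu. All later libraries were above all GMP libraries while preNeu and matNeu overlapped, and the gain from GMP to matNeu was 1.54 (SE 0.17, limma adjusted p = 9.24e-06). Arhgap15 had 122, 126 and 129 TPM in GMPs, 99.9, 111 and 127 TPM in preNeu and 208, 248 and 249 TPM in matNeu, so that only matNeu stood apart, with a gain of 0.90 over GMPs (SE 0.13, adjusted p = 6.25e-05). Eapp had 56.0, 42.0 and 50.6 TPM in GMPs, 43.2, 56.6 and 36.0 TPM in preNeu and 95.6, 87.0 and 84.7 TPM in matNeu. Its GMP and preNeu libraries overlapped and matNeu lay above both, by 0.84 over GMPs (SE 0.18, adjusted p = 0.00141).

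Rdm1 and Mreg peaked in preNeu. Rdm1 had 32.7, 24.4 and 28.2 TPM in GMPs, 66.6, 80.8 and 60.9 TPM in preNeu and 7.55, 20.8 and 11.7 TPM in matNeu, without overlap between the stages. It rose by 1.26 (SE 0.30, adjusted p = 0.00399) from GMP to preNeu, and its fall of -1.13 from GMP to matNeu (adjusted p = 0.00493) became 0.26 with equal medians (adjusted p = 0.469). Mreg had 0.368, 1.55 and 2.59 TPM in GMPs, 10.1, 11.6 and 17.2 TPM in preNeu and 1.44, 2.44 and 1.50 TPM in matNeu, and only preNeu stood apart. It rose by 2.55 (SE 0.37, adjusted p = 0.000185) from GMP to preNeu. Ang6 was listed at 0 in all 9 libraries.

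The genes with the most kept sites were Zfp386 (33 of its 110 CHD4 sites), AC149090.1 (26 of 30), Lpp (25 of 74), Tbl1xr1 (24 of 61), Asap1 (24 of 51), Cited2 (19 of 80), Inhba (18 of 63), Gpr141 (18 of 32), Pde4d (17 of 77) and Jun (16 of 50). The kept sites of Zfp386, a zinc-finger gene, lay 92.0 to 928 kb from its TSS. AC149090.1, on the scaffold named above, was not in the expression table. Inhba, which encodes a subunit of activin A, had 0.783, 0.101 and 0.119 TPM in GMPs, 185, 236 and 201 TPM in preNeu and 1.75, 2.03 and 3.62 TPM in matNeu. All preNeu libraries lay far above the others, with a rise of 7.32 (SE 0.28, adjusted p = 1.79e-08) from GMP, and 7 of its kept sites carried H3K4me2 in preNeu and matNeu but not in GMPs.

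Jun, an AP-1 subunit that is induced early after stimulation, had 56.7, 55.6 and 63.0 TPM in GMPs, at most 18.4 TPM in preNeu (mean 13.7, SD 4.31) and 139, 87.0 and 156 TPM in matNeu. It was lowest in preNeu and highest in matNeu in every library, and rose by 3.12 (SE 0.25, adjusted p = 1.26e-06) between them. All 16 kept sites lay 37.0 to 251 kb upstream of the TSS, the strongest in WT GMPs with a fold of 48.3 that was 12.2 in Gfi1-/- GMPs, and 10 carried H3K4me2 at all 3 stages. Pde4d, a phosphodiesterase that degrades cAMP, had 68.5, 67.7 and 72.9 TPM in GMPs, 63.3, 76.9 and 56.8 TPM in preNeu and 2.07, 2.15 and 2.05 TPM in matNeu. Its GMP and preNeu libraries overlapped, and it fell by -4.42 (SE 0.17, adjusted p = 5.55e-09) from preNeu to matNeu.

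Gpr141, an orphan receptor, rose at each step, with 85.8, 81.9 and 56.1 TPM in GMPs, 125, 144 and 162 TPM in preNeu and 237, 237 and 244 TPM in matNeu, and 12 of its 18 kept sites carried H3K4me2 in preNeu and matNeu but not in GMPs. Zfp386 fell at each step, with 72.5, 44.4 and 52.4 TPM in GMPs, 18.6, 10.5 and 18.8 TPM in preNeu and 4.16, 6.08 and 5.32 TPM in matNeu. From GMP to matNeu the changes were 1.69 for Gpr141 (adjusted p = 3.61e-06) and -3.20 for Zfp386 (adjusted p = 1.07e-06), in the same direction with equal medians. Cited2, a transcriptional coregulator, was highest in preNeu, at 40.8, 40.8 and 39.3 TPM against 5.06, 7.42 and 17.9 TPM in GMPs. Lpp, a focal adhesion protein, was low throughout, with 1.42, 1.38 and 0.698 TPM in GMPs, 0.533, 0.628 and 1.42 TPM in preNeu and 3.57, 4.74 and 5.26 TPM in matNeu, and rose by 1.36 from GMP to matNeu (adjusted p = 0.0013). Tbl1xr1, a subunit of the NCoR corepressor complex, was lowest in preNeu, with 23.7, 26.5 and 29.2 TPM against 46.6, 38.1 and 48.2 TPM in GMPs and 34.9, 40.1 and 40.9 TPM in matNeu, and its fall of -0.72 from GMP to preNeu (adjusted p = 0.00269) was -0.09 with equal medians (adjusted p = 0.652). Asap1, an ARF GTPase-activating protein, had 57.5 to 101 TPM in GMPs and 80.7 to 108 TPM in matNeu, with overlap and a change of 0.23 (adjusted p = 0.346), which was 1.62 with equal medians (adjusted p = 1.45e-05).

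**Figure D5:**
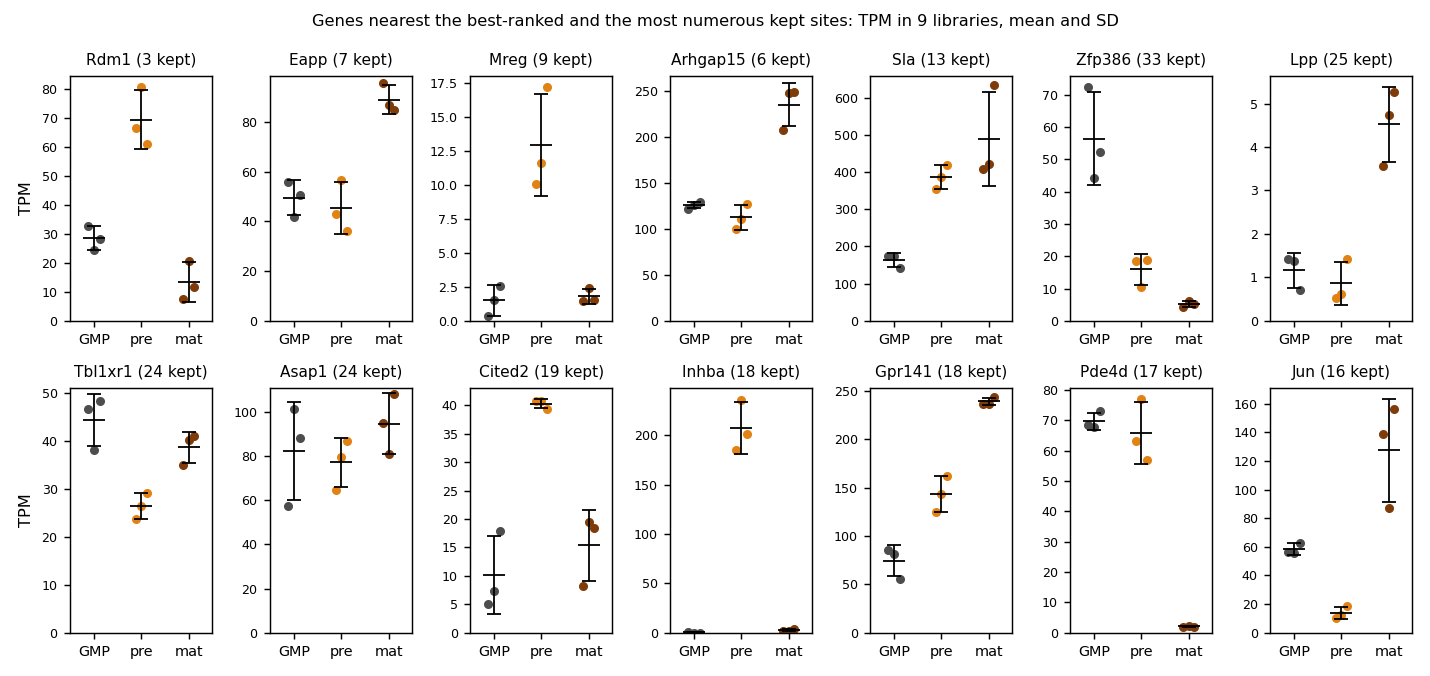
TPM in each of the 3 libraries of GMP, preNeu and matNeu cells (points) with the mean and SD (bars) for the tested genes nearest to the 10 best-ranked kept sites and for the genes with the most kept sites, whose number stands in each title. Inhba, Mreg, Cited2 and Rdm1 are highest in preNeu, Zfp386 falls at each stage and Gpr141 rises at each stage, with vertical axes that start at 0 and differ between genes.

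Genes with a kept site at the promoter included some of the most strongly changed neutrophil and progenitor genes, chosen here as the 5 with the largest change each way from GMP to matNeu. Mmp8, the neutrophil collagenase stored in granules, had 10.1, 5.07 and 8.57 TPM in GMPs, 174, 206 and 234 TPM in preNeu and 5831, 7533 and 6443 TPM in matNeu, a rise of 9.57 (SE 0.21, limma adjusted p = 1.19e-10). It had 4 kept sites among 12, 2 of them at the promoter, with folds of 49.0 and 36.6 in WT GMPs and of 7.27 and 11.9 in Gfi1-/- GMPs. Sirpb1b and Cd300ld, both immune receptors, rose by 9.66 and 9.65, from at most 0.347 TPM in any GMP library to at least 902 TPM in every matNeu library. Lilr4b, a leukocyte immunoglobulin-like receptor, rose by 9.75 and Gm49339 by 9.43. These last genes overlap on chromosome 10 and share the kept site at their start, so their reads cannot be fully told apart.

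Mpo, the myeloperoxidase of primary granules, had 31476, 33396 and 31975 TPM in GMPs, 4194, 5097 and 5938 TPM in preNeu and 1.87, 7.65 and 2.61 TPM in matNeu, a change of -12.82 (SE 0.32, limma adjusted p = 2.45e-10). It had 3 kept sites among 7, the nearest 0.031 kb from the TSS. Myc, which drives growth and division, had 386, 462 and 438 TPM in GMPs, 17.2, 26.3 and 31.4 TPM in preNeu and 0.089, 0.468 and 0.349 TPM in matNeu, a change of -8.37 (SE 0.23, adjusted p = 3.65e-10), with 13 kept sites among 38. Cd34, a surface marker of progenitors, had 498, 486 and 425 TPM in GMPs and 1.22 to 3.27 TPM in the other 6 libraries, and its 4 kept sites included the promoter, with folds of 16.0 in WT and 5.55 in Gfi1-/- GMPs, and an intron site with 30.1 and 9.43. Ms4a3, a marker of GMPs, fell by -9.21 and BC035044 by -7.30. All 10 genes kept their direction with equal medians.

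Most granule protein genes with kept sites rose from GMP to preNeu, as did most secondary and tertiary granule genes in the whole list. Of 7 primary granule genes, 3 had kept sites, of which Lyz1 and Lyz2 rose and Mpo fell, beside 2 rising and 4 falling in the list. Of 17 secondary and tertiary granule genes, 6 had, with 18 of 54 sites kept (33.3%, beside 18.5% of all WT sites). From GMP to preNeu, 5 of these 6 rose and none fell, beside 15 rising and none falling among the 17. Of all genes tested, 14.7% rose and 44.3% fell. Chil3, a chitinase-like protein, rose from 61.9, 38.9 and 35.5 TPM in GMPs to 41328, 37138 and 43422 TPM in preNeu and was at 205, 178 and 217 TPM in matNeu. Cybb, the catalytic subunit of the phagocyte oxidase, had 5 kept sites and was highest in preNeu, with 1838, 1886 and 2171 TPM against 98.6, 81.5 and 61.3 TPM in GMPs. Lyz2, a lysozyme, had 2 kept sites and was 1088, 613 and 765 TPM in GMPs and at least 26946 TPM in every later library.

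Chemotaxis and adhesion genes had 66 of 200 sites kept (33.0%, beside 18.5% of all WT sites), at 11 of 21 genes. From GMP to matNeu, 8 of these 11 rose and 1 fell, beside 18 rising and 1 falling among all 21. Of all genes tested, 22.8% rose and 54.1% fell. Ccr1, a receptor for inflammatory chemokines, had 10 kept sites and rose from 7.24, 5.49 and 4.59 TPM in GMPs to 968, 1023 and 1283 TPM in matNeu, by 7.34 (limma adjusted p = 3.27e-10). Its neighbour Ccr2, which guides monocytes, had 7 kept sites and was the member that fell, from 154, 110.0 and 118 TPM to 0.558, 0.269 and 0.891 TPM. Cd44, a hyaluronan receptor, had 11 kept sites and rose by 2.57. Itga4, an integrin subunit, had 10 and changed by -0.17 (adjusted p = 0.592), which was 1.23 with equal medians (adjusted p = 0.001).

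Transcription factor genes differed in how many of their sites were kept. Myeloid factors had 89 of 368 sites kept (24.2%) at 12 of 28 genes, and progenitor factors 42 of 267 (15.7%) at 11 of 20. The share over all WT sites was 18.5%. From GMP to matNeu, 6 of 11 tested myeloid factors with kept sites rose and 4 fell. In their whole list, 18 of 27 rose and 7 fell. For progenitor factors with kept sites, 3 of 11 rose and 7 fell, beside 3 rising and 14 falling of 18 in their list. Over all genes tested, 22.8% rose and 54.1% fell, and a difference from these shares was not tested. Id2, an inhibitor of helix-loop-helix factors, had 15 kept sites and went from 11.3, 7.25 and 9.40 TPM in GMPs to 396, 415 and 386 TPM in preNeu and 104, 96.7 and 121 TPM in matNeu. Klf6 (12 kept sites) and the repressor Bcl6 (13) rose by 4.69 and 4.75 from GMP to matNeu, and Zeb2 (12), a zinc-finger repressor, fell by -2.16. Gfi1 itself had 8.01, 5.88 and 17.5 TPM in GMPs, 20.1, 23.2 and 29.2 TPM in preNeu and at most 0.145 TPM in matNeu. The study reported more GFI1 protein in matNeu than in preNeu by western blot, so this RNA level is not a measure of the protein. Gfi1b had 11.2, 8.09 and 7.65 TPM in GMPs and at most 2.27 TPM later.

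Of 22 cytokine and growth factor receptor genes, 11 had kept sites, 41 of 161 in all (25.5%, beside 18.5% of all WT sites). From GMP to preNeu, 2 of these rose and 7 fell, beside 4 rising and 13 falling of 22. Over all genes tested, 14.7% rose and 44.3% fell. Ifngr1, a receptor chain for interferon gamma, had 14 kept sites and fell by -1.16 from GMP to matNeu (limma adjusted p = 5.64e-06), which was 0.23 with equal medians (adjusted p = 0.0769). Of the SOCS and DUSP feedback inhibitors, 6 of 19 had kept sites, and Dusp6, a phosphatase of ERK, had 11 and rose by 3.05 from GMP to matNeu (adjusted p = 2.33e-08). Innate sensing genes had 19 of 116 sites kept (16.4%) at 10 of 20 genes. From GMP to matNeu, 8 of these 10 rose, beside 15 of 18 tested in the list and 22.8% of all genes tested. Tlr13 was among them and rose from at most 1.95 TPM in GMPs to at least 341 TPM in matNeu. The cell cycle kinase gene Cdk6 had 6 kept sites and fell from 168, 164 and 170.0 TPM to 2.19, 2.02 and 1.74 TPM.

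None of the 10 CHD4 sites near NuRD subunit genes was kept, and erythroid and megakaryocyte genes had 2 of 33 kept. Of all WT sites 18.5% were kept, and with so few sites a difference from that share was not tested. Chd4 itself had no CHD4 site assigned to it and was measured at 86.2, 81.6 and 71.4 TPM in GMPs, 36.4, 40.9 and 49.1 TPM in preNeu and 33.1, 26.8 and 35.2 TPM in matNeu. It fell by -1.31 from GMP to matNeu (limma adjusted p = 2.76e-05), which was 0.09 with equal medians (adjusted p = 0.595).

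Loci at which the study measured CHD4 by ChIP-qPCR or showed its tracks were looked up one by one. The study reported that CHD4 was lost in Gfi1-/- GMPs at the genes it chose for ChIP-qPCR, and at Cd34, Csf1r and Csf1. It also reported that CHD4 stayed at a minority of the sites shared with GFI1 and largely at sites with CHD4 alone. Its set of WT CHD4 peaks was much smaller than the list used here. Most CHD4 sites of the study thus stayed, while 18.5% of the longer list were kept. The cause of this difference was not tested. A kept site below is an overlap of at least 1 bp with a Gfi1-/- peak and does not measure how much CHD4 remained. Sites are assigned by the nearest TSS and need not be the stretches that ChIP-qPCR measured. The genes are those with ChIP-qPCR primers in the study, with Csf1 and Plbd1, and the study reported loss at a part of them. Kept sites were found at Jun (16), Cd34 (4), Mmp8 (4), Rhobtb1 (2), Hal (1), Meis1 (1), Csf1 (1) and Plbd1 (1), and none at Csf1r (2 CHD4 sites), Cfp (2) and Fcgr4 (6), while Hoxa9 had no CHD4 site. The nearest kept site lay 37.0 kb from the TSS of Jun and 93.6 kb from that of Meis1. At the Hal promoter the fold was 31.2 in WT and 7.21 in Gfi1-/- GMPs, and at the Rhobtb1 promoter 16.0 and 4.99. The Csf1 site, 17.8 kb upstream of the gene for the macrophage growth factor M-CSF, had 47.5 and 9.94 and no H3K4me2 at any stage. Csf1 had 6.99, 4.02 and 3.85 TPM in GMPs, 2.23, 2.07 and 1.67 TPM in preNeu and 44.6, 23.4 and 52.6 TPM in matNeu, with all matNeu libraries above the rest and a rise of 2.75 from GMP to matNeu (SE 0.33, limma adjusted p = 1.63e-05). Plbd1, a phospholipase gene, had a kept site 28.3 kb away with 27.9 and 9.99 and went from 2.41, 2.39 and 2.18 TPM in GMPs to 971, 931 and 1047 TPM in preNeu.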

How the data were processed

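The CHD4, H3K4me2 and ATAC peak lists and the TPM table were used as deposited. For peaks, the authors give a fold enrichment (a ratio) and a -log10 q from MACS2. The TPM values of the authors are per transcript length and library. The submitters' processing notes list Trimmomatic 0.36, BWA 0.7.17, MACS2 2.1.0 and kallisto 0.44.0. Peaks were called per library, and depth is unknown. Stages follow the sample titles, since the cell type tag differs from the title in 13 of 18 samples. The members and gene lists were chosen with earlier results of these data known.

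Sites were placed by summit on GRCm38 with GENCODE M21 and RefSeq sequence. Windows of 200 bp were searched for motifs and for stretches of at least 31 bp shared between sites. Shares carry 95% Wilson and differences 95% Newcombe intervals. Differences within 20 bins are means over bins weighted by the number of kept sites, with 95% intervals from a normal approximation. The highest decile held only 253 other sites, so the intervals within bins are approximate and can be too narrow. Genes with at least 1 TPM in 3 libraries were tested on log2(TPM + 1) with limma 3.58.1 in R 4.3.3 (trended variance, Benjamini-Hochberg 0.05), after a check on simulated data. Other steps used Python 3.11.15 with pandas 2.3.3. Named genes are those nearest to the 10 best Gfi1-/- ranks, the 10 with most kept sites, the 5 with a kept promoter site that changed most each way, list members with most kept sites, and ChIP-qPCR loci. Alternatives were other overlaps, thresholds, scalings and libraries. The GFI1 and H3K4me3 lists hold positions beyond the ends of GRCm38 chromosomes and were not used here.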

Additional observations from a re-analysis of the deposited data

How the results depend on the processing

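Of 165 alternatives over 24 results, 5 reversed the result, 25 moved it and 135 left counts within 1.5 times the reported one and shares within their interval. The cause of the changes was not tested. With a -log10 q of at least 10 in both lists, 3983 sites were kept. Within 20 bins of WT fold, the kept-minus-other difference was -2.43 points for promoters (interval -6.60 to 1.74), 4.66, 6.98 and 9.50 for H3K4me2 in GMP, preNeu and matNeu, 2.79 for ATAC (interval from -1.43, including 0), 3.10 for the GFI1 and 2.15 for the RUNX motif, and it reversed to -1.21 for ETS-IRF, 0.732 for GATA and 0.0471 for SP/KLF. With the summit inside the H3K4me2 peak it was 5.26 in GMP. With the summit inside and within bins, an alternative chosen after seeing the data, it was -0.427 in GMP (interval -6.39 to 5.54), 8.27 in preNeu and 1.78 for ATAC (-2.40 to 5.95). With H3K4me2 peaks of a -log10 q of at least 5 it was -1.93, 9.14 and 8.35. In 100 bp windows the C/EBP difference was 2.37. With equal medians, the genes that rose and fell numbered 1069 and 464 (matNeu against GMP), 781 and 421 (preNeu against GMP) and 985 and 392 (matNeu against preNeu). Without the 50 most abundant genes they were 688 and 820, 599 and 538, and 547 and 729.

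Leaving out each library gave 630 to 655 rising and 839 to 867 falling genes for matNeu against GMP, 403 to 453 and 658 to 746 for preNeu against GMP, and 569 to 618 and 598 to 650 for matNeu against preNeu. The replicate block gave 652 and 870, 447 and 732, and 617 and 635, and same-numbered libraries correlated between -0.0394 and 0.123, so the numbers were not taken as pairs. With 1 ChIP library per genotype, a lost peak and a lower depth or efficiency of the Gfi1-/- library cannot be told apart.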

Other observations

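The share of CHD4 sites that were kept varied little between chromosomes, from 15.0% of 1242 on chromosome 17 to 20.1% of 1755 on chromosome 9, with 1 of 11 on chromosome Y. Genes of lineages other than neutrophils also held kept sites. Among lymphocyte genes 8 of 23 sites were kept (34.8%, beside 18.5% of all WT sites), 3 of them at Ms4a1, the B cell antigen CD20. Ms4a1 had 0.523, 0.421 and 0.523 TPM in GMPs and 8.33, 11.5 and 16.0 TPM in matNeu. The B cell markers, Ms4a1 among them, summed to 62.9 to 137 TPM in matNeu, and whether its level came from B cells was not tested. Among basophil, mast cell and eosinophil genes all 4 kept sites were at Il1rl1, the receptor of IL-33, with 8.56, 11.4 and 5.21 TPM in GMPs. Among AP-1 and immediate early genes 21 of 101 sites were kept (20.8%), at 4 of 15 genes. From GMP to matNeu, 3 of these 4 rose, beside 11 of 14 in the list and 22.8% of all genes tested.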
